A study of Mus musculus with 4 samples.

Results

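The regions described here are 168 Gata4 ChIP-seq peaks of Dnmt3a/Dnmt3b double-knockout (DKO) mesoderm cells that lay close to a gene start but in sequence with few CpGs. They were selected on 2 values of the DKO peak list, namely a distance of up to 1000 bp from the 5′ end of an annotated gene and a count of 8 or fewer CpGs in the deposited window, which reaches 250 bp to either side of the peak position. The list of the wild-type (WT) cells was then used to divide them into 75 peaks with a WT peak within 500 bp, called shared, and 93 without one, called DKO-only. They made up 1.56% (95% Wilson interval 1.34% to 1.81%) of the 10799 DKO peaks within that distance of a gene start, and 0.739% (0.636% to 0.859%) of all 22733 DKO peaks.

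The study asked where Gata4 binds in WT mesoderm cells and in mesoderm cells with reduced DNA methylation, and sequenced 4 libraries, with 1 library for each condition. WT Flk1(+) and DKO Flk1(+) cells were mesoderm progenitors made from J1 embryonic stem (ES) cells of 129 background on OP9 stroma cells, given 100 nM dexamethasone (Dex) for 3 hours on day 4.5, and sorted with magnetic beads for Flk1, a surface receptor of mesoderm cells for vascular growth factor. Undifferentiated ES cells of each genotype, without Dex, gave the WT ES and DKO ES libraries, which served as background. Clones of both genotypes carried Gata4GR, in which Gata4 is joined to the part of the human glucocorticoid receptor that binds its ligand, expressed from the CAG promoter and active with Dex. The DKO cells were Dnmt3a-/-Dnmt3b-/-, and each Flk1(+) library came from 1 clone, labelled J1G4.2 for WT and 16G4.3 for DKO, so that genotype and clone cannot be told apart. The labels of the ES libraries name no clone. Chromatin was isolated with a mixture of antibodies to Gata4, which can also bind Gata4 that the cells make themselves. No condition had a replicate, so no value given here was tested between conditions, and the intervals reflect only counting error in a single library. The lists hold no RNA measurement, so that neither the Flk1 sort nor the loss of Dnmt3a and Dnmt3b could be checked from them. The number of reads is not in the lists, and by the read numbers in the paper the DKO Flk1(+) library was sequenced more deeply than the WT Flk1(+) library.

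Most mammalian genes start in a CpG island, a stretch rich in CpGs that is usually free of methylation, whereas CpG-poor promoters often belong to genes used in few cell types and can carry methylation at the few CpGs they have. Dnmt3a and Dnmt3b place new methyl groups on CpGs. Gata4 belongs to the zinc finger proteins that bind the letters GATA, and it acts in endoderm, heart and other mesoderm tissues. Its relatives Gata1 and Gata2 bind the same letters in blood cells and vessels. The sequence searched for here was WGATAA, that is AGATAA or TGATAA on either strand, a word that holds no CpG itself.

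The sequences of 8 peaks show the range of these regions, from peaks centred on GATA words to peaks centred on simple repeats. Each run is 101 bases of the plus strand of mm9 with the peak position in the middle, and capitals mark WGATAA or its reverse complement. The first 4 peaks were shared, and each had a match in the printed bases.
*Spink4*, chr4:40866967-40867067: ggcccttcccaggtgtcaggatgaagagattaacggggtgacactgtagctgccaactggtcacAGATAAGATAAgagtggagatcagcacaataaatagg
*Gp1ba*, chr11:70452469-70452569: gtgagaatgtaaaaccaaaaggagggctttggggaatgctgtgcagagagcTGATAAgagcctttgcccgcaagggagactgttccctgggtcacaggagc
*F2rl3*, chr8:75285377-75285477: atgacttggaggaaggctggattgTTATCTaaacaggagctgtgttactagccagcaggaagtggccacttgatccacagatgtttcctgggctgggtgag
*Slc17a4*, chr13:24005970-24006070: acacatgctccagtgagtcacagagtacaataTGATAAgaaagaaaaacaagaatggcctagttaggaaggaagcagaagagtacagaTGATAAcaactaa

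The next 3 peaks were DKO-only and had a match in the printed bases.
*Itga2b*, chr11:102331436-102331536: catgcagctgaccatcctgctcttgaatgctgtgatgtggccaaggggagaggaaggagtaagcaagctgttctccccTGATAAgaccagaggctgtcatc
*Vwf*, chr6:125502868-125502968: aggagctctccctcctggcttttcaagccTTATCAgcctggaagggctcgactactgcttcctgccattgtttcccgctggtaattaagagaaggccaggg
*Phxr4*, chr9:13233667-13233767: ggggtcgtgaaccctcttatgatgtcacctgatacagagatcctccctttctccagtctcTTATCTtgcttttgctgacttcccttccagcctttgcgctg

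The last was a DKO-only peak on a run of CA units, without a match in the printed bases.
*Gbp9*, chr5:105539312-105539412: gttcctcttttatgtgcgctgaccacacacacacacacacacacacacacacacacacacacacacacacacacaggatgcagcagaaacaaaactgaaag

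The split by WT peak was close to that of the rest of the DKO list. Of the CpG-poor promoter peaks 55.4% (47.8% to 62.7%) were DKO-only. Among all DKO peaks 54.9% had no WT peak within 500 bp, and so had 54.4% of the promoter peaks with more than 8 CpGs and 49.7% of the CpG-poor peaks further from a gene start. The DKO-only share of the CpG-poor promoter peaks was therefore near that of the list as a whole. The WT position lay within 100 bp for 55 of the 75 shared peaks, and at a median of 30 bp. The nearest WT peak lay 513 bp from the closest DKO-only peak, at *Blvrb*, and at a median of 19875 bp. For 39 of the 93 DKO-only peaks the WT list named the same gene through another peak within 5 kb of it. The share over all DKO-only peaks was not counted, so this count has no baseline here. A position outside the WT list may still have had signal below the calling threshold there, which the lists do not show.

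Peak heights, which are the authors' values of the smoothed read profile, were low in this group. The DKO Flk1(+) height of the 168 peaks ran from 5.01 to 26.3 with a median of 6.04, against medians of 7.58 for promoter peaks with more CpGs, 6.40 for CpG-poor peaks further away and 6.91 for all DKO peaks. The 75 shared peaks had heights from 5.06 to 26.3 (median 6.88) and the 93 DKO-only peaks from 5.01 to 17.8 (median 5.65), so that the ranges overlapped up to 17.8 and only shared peaks stood higher. A height of up to 6 was found for 23 shared and 58 DKO-only peaks, and a height over 10 for 18 and 4. In the DKO ES library the medians were 1.38 for the shared and 1.32 for the DKO-only peaks, so the ES background did not separate the sets. The authors' enrichment, the ratio of both heights with an ES height below 1 taken as 1, had a median of 5.25 for shared and 4.48 for DKO-only peaks. The ES height was below 1 at 47 of the 168 peaks, where the enrichment equals the Flk1(+) height. By the authors' score, 68.0% (56.8% to 77.5%) of the shared peaks and 35.5% (26.5% to 45.6%) of the DKO-only peaks stood in the upper 50% of the DKO list.

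**Figure D1:**
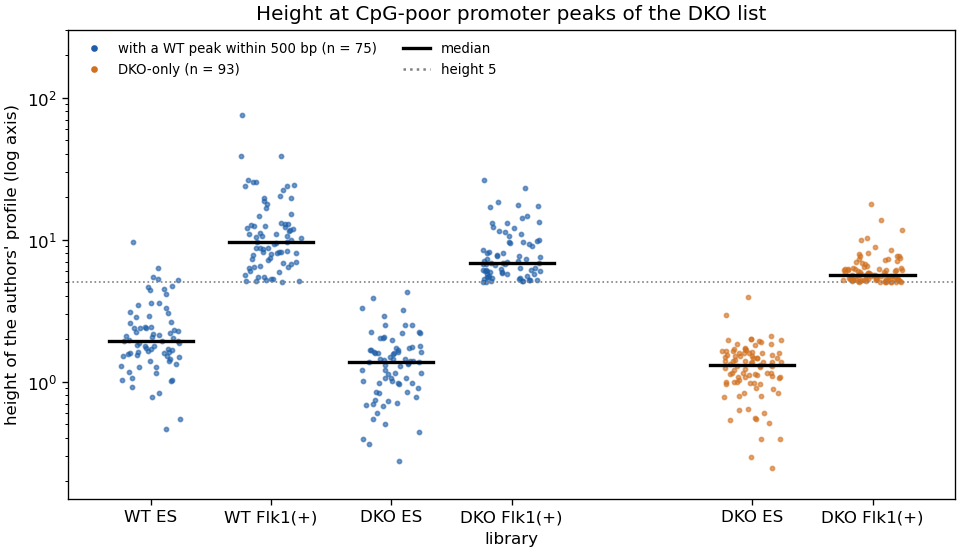
Height of the authors' profile (log axis) in each library at the 75 shared (blue) and 93 DKO-only (orange) CpG-poor promoter peaks. Points are peaks, black bars are medians, the dotted line is a height of 5, and the WT libraries have values only where the WT list has a peak. The DKO Flk1(+) medians are 6.88 for shared and 5.65 for DKO-only peaks, while the DKO ES medians are 1.38 and 1.32.

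The sets also differed in how often they held the GATA word, which the selection did not use. WGATAA occurred in 57 of the 75 shared windows, 76.0% (65.2% to 84.2%), and in 38 of the 93 DKO-only windows, 40.9% (31.4% to 51.0%), intervals that did not overlap. In windows of the same length 2 kb to either side, the shares were 42.0% and 35.5%. The DKO-only share therefore stood close to its flanks, and the shared peaks were well above theirs. For scale, promoter peaks with more CpGs held WGATAA in 15.2% of shared and 12.1% of DKO-only windows, below their flanks at 40.6% and 38.6%, and CpG-poor peaks further from a start held it in 87.3% and 57.9%. More than 1 match was found in 28 shared windows (37.3%, 27.3% to 48.6%) and in 7 DKO-only windows (7.53%, 3.69% to 14.7%).

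Since the score of the sets differed, the motif was also counted within each part of the score. In the upper 50% of the DKO list WGATAA was found in 41 of 51 shared peaks (80.4%, 67.5% to 89.0%) and in 19 of 33 DKO-only peaks (57.6%, 40.8% to 72.8%). In the lower 50% it was found in 16 of 24 (66.7%, 46.7% to 82.0%) and in 19 of 60 (31.7%, 21.3% to 44.2%). The shared share was higher in both parts, with intervals that overlapped in the upper part and not in the lower one. How far the score accounts for the difference was not tested.

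**Figure D2:**
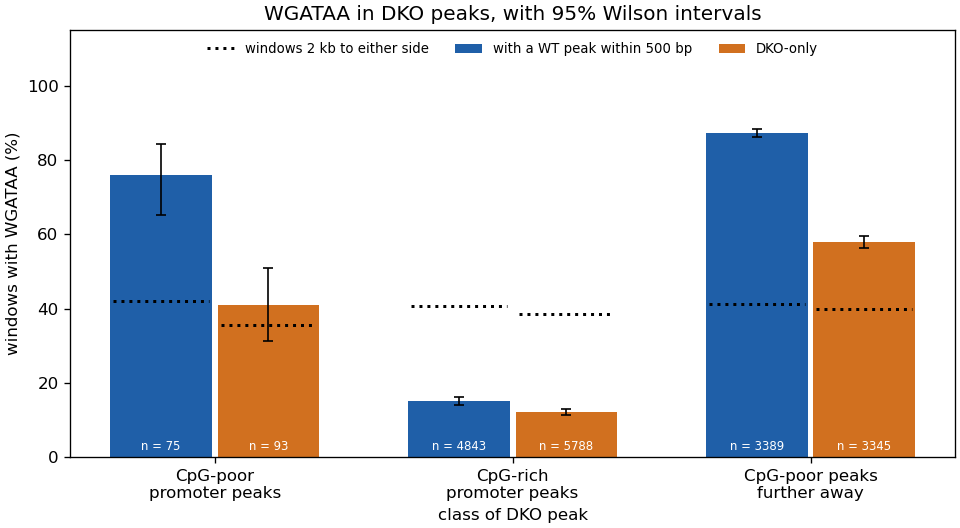
Percent of windows with WGATAA in 3 classes of DKO peaks, for peaks with a WT peak within 500 bp (blue) and DKO-only peaks (orange). Error bars are 95% Wilson intervals and dotted lines are the windows 2 kb to either side. Among the CpG-poor promoter peaks the shared share of 76.0% stands far above its dotted line, and the DKO-only share of 40.9% near it.

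The matches also lay closer to the peak in the shared set. Of 91 WGATAA matches in shared windows, 47 lay within 50 bp of the peak position, 51.6% (41.5% to 61.6%), against 19.3% of the matches in their flanks. Of 49 matches in DKO-only windows, 19 lay there, 38.8% (26.4% to 52.8%), against 20.2% in their flanks. Among windows with a match, the nearest one lay at a median of 29.5 bp in shared and 52.5 bp in DKO-only peaks. Both sets were thus more central than their flanks, and their intervals overlapped each other. A CpG lay within 10 bp of 30 of all 140 matches (21.4%, 15.4% to 28.9%), compared with 51.1% of the matches in CpG-rich promoter peaks and 16.3% of those in CpG-poor peaks further away. The contrast with the CpG-rich promoter peaks is one that the CpG limit itself favours.

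**Figure D3:**
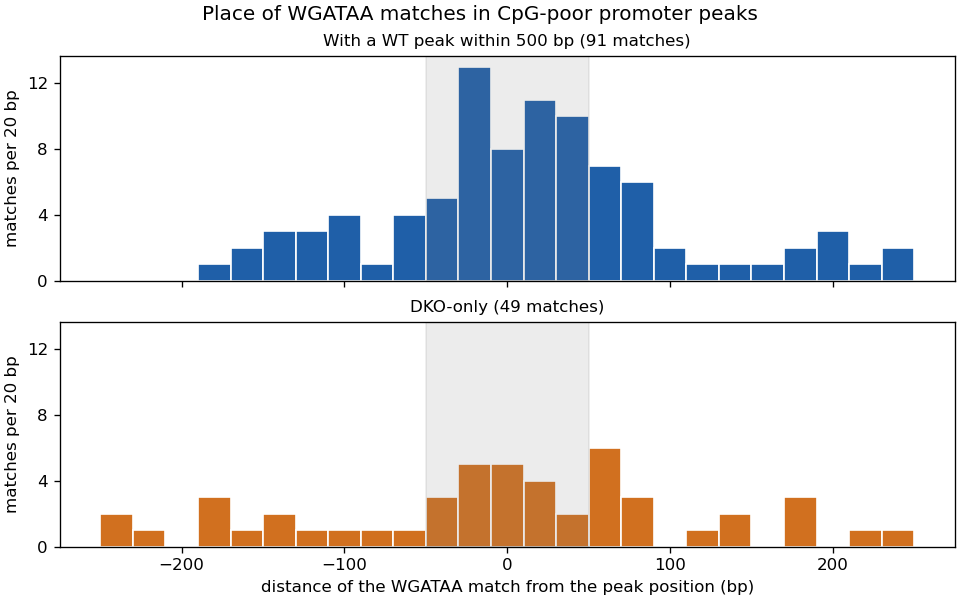
Distance in bp of each WGATAA match from the peak position, counted per 20 bp, for the 91 matches of shared peaks (top) and the 49 of DKO-only peaks (bottom). The grey band marks 50 bp to either side, which holds 47 of the shared and 19 of the DKO-only matches.

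The other words searched differed less between the sets. TATAAA, the TATA box, occurred in 20% (12.5% to 30.4%) of shared and 6.45% (2.99% to 13.4%) of DKO-only windows, against 24.7% and 26.3% of their flanks, so that only the DKO-only interval lay below its flanks. A share below the flanks was also found for CpG-poor peaks further away (17.6% against 30.6%) and for all DKO peaks (10.9% against 29.6%). TGANTCA, which AP-1 proteins bind, occurred in 30.7% (21.4% to 41.8%) and 21.5% (14.4% to 30.9%), against 18.0% and 11.8% of the flanks, both below the intervals. CpG-poor peaks further away likewise held TGANTCA in 26.8%, against 14.8% of their flanks. GGGCGG, the GC box of CpG-rich promoters, occurred in 13.7% of the 168 windows and in 77.5% of the promoter peaks with more CpGs, a contrast that the CpG limit itself favours. For CCAAT (44.0%), CANNTG (92.3%) and CACCC (75.6%) the interval of the 168 windows held the share of their flanks, at 41.7%, 94.9% and 69.3%. With the wider word WGATAR, which also takes AGATAG and TGATAG, the shares were 78.7% (68.1% to 86.4%) for shared and 57.0% (46.8% to 66.6%) for DKO-only peaks.

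Part of the windows without a GATA word held simple repeats. A run of at least 8 TG or CA units, counted after these repeats had been noticed in the printed windows, was present in 26 of the 168 windows (15.5%, 10.8% to 21.7%), in 1.51% of the promoter peaks with more CpGs and in 11.9% of the CpG-poor peaks further away. It was found in 8.63% of the flanks of the 168 peaks. Among windows without WGATAA 17 of 73 (23.3%, 15.1% to 34.2%) held such a run, and among those with it 9 of 95 (9.47%, 5.06% to 17.0%). The flanks of these groups differed too, at 11.6% and 6.32%. In 10 of the 17 windows without WGATAA the run lay within 50 bp of the peak position. The run lay within 50 bp of the peak position in 15 of the 26 windows, as at *Gbp9* and *Triobp*. The sets were close in this respect, with 12% (6.44% to 21.3%) of shared and 18.3% (11.7% to 27.3%) of DKO-only peaks. Neither the GATA word nor such a run was found in 56 windows, of which 45 were DKO-only. Reads map less surely to repeats, and their part in these peaks was not tested.

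The highest-scoring shared peak was at *Spink4*, a serine protease inhibitor gene of gut and other endoderm tissues. The peak, 72 bp before the start, had a height of 23.2 in DKO Flk1(+) and 0.445 in DKO ES cells, and ranked 63 in the DKO list. The WT peak 3 bp away had a height of 75.9 against 1.69 in WT ES cells and rank 1 of its list. The window held 3 CpGs and a pair of overlapping GATA words, printed above. At *Gp1ba*, which encodes the platelet receptor for von Willebrand factor, a peak 105 bp upstream had a height of 13.2 in DKO Flk1(+) and 0.365 in DKO ES cells, and the WT peak a height of 24.1 against 1.28. Both genes thus stood near the top of both lists.

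Several other best-scoring shared peaks stood lower in the WT list. The peak of *Slc17a4*, a phosphate transporter gene of the gut, lay in an intron 856 bp downstream of the start and ranked 209 in the DKO list, with a height of 17.0 against 0.833, while its WT peak ranked 18757 with 6.94 against 1.97. *Adcy6*, an adenylyl cyclase gene, had a peak 100 bp upstream with a height of 12.3 against 1.44 and a WT peak with 8.20 against 2.40. *F2rl3*, which encodes a thrombin receptor of platelets, had a peak 352 bp upstream with a height of 12.1 against 0.699 and a WT peak with 10.5 against 2.22. At *Icam2*, an adhesion molecule gene of vessel and blood cells, the heights were 13.3 against 1.77 in DKO cells and 6.71 against 1.03 in WT cells. The remaining ones were *Triobp*, which encodes an actin-binding protein, with the greatest DKO height of the group (26.3 against 2.49) on a TG run without WGATAA, and the peaks of *Mir297-1*, *5033406O09Rik* and *Gm826*, with heights of 18.4, 10.6 and 10.0. *Mir297-1* ranked 162 in the DKO list and 143 in the WT list. For *Mir297-1* and *5033406O09Rik* no start was found in the annotation used here.

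The highest-scoring DKO-only peak was at *Itga2b*, the gene of the platelet integrin also used as an early blood marker. It lay 289 bp upstream with a height of 11.7 in DKO Flk1(+) and 1.59 in DKO ES cells, rank 815, 4 CpGs and 1 GATA word. The nearest WT peak lay 2893 bp away. *Samsn1*, an adaptor gene of blood cells, had a peak 365 bp downstream of the start with a height of 10.3 against 0.558, beside a TG run and with its 1 match 134.5 bp from the peak position. *Phxr4* had a peak 864 bp upstream with a height of 9.88 against 0.548 and 3 matches.

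Further leading DKO-only peaks came from genes of varied function. *Rdh11* and *Rdh1*, both retinol dehydrogenase genes, had heights of 8.40 against 1.51 and 7.74 against 0.395. *Slc18a2*, the vesicle transporter of monoamines, had a height of 7.88 against 1.47, and *Cyp4x1*, a cytochrome P450 gene, 7.66 against 0.987. *Gbp9*, a guanylate-binding protein gene, had a peak 51 bp upstream with a height of 7.48 against 0.882 on the CA run printed above, and its 1 match lay 236.5 bp off. *Epb4.1l5*, the gene of a protein that links the membrane to the cytoskeleton, had 13.9 against 2.97 with 3 matches. Of the 10 best-scoring DKO-only peaks 8 held WGATAA, and *Rdh11* was among those without it.

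The count of GATA words went up to 3 in a window. The 10 windows with 3 matches comprised 6 shared peaks, at *D730005E14Rik*, *Alpk3*, *Olfr576*, *Trim14*, *Tfpi* and *Zscan2*, and 4 DKO-only peaks, at *Phxr4*, *Epb4.1l5*, *Tacc1* and *Slc23a1*. *Alpk3*, a kinase gene of heart muscle, had heights of 17.4 in DKO Flk1(+) and 39.0 in WT Flk1(+) cells, but also 3.90 and 9.70 in the ES libraries. *Tfpi*, an inhibitor of blood clotting, had 13.1 and 25.3, against 3.31 and 5.28 in ES cells. *Tacc1* had only 5.25 against 1.24, so 3 matches were found in low peaks too. By number of matches, 73 windows had 0, 60 had 1, 25 had 2 and 10 had 3.

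At the 75 shared peaks the WT Flk1(+) height ran from 5.07 to 75.9 with a median of 9.62, and the WT ES height had a median of 1.93. The ratio of the WT to the DKO Flk1(+) height ran from 0.409 to 3.87 with a median of 1.40, and the WT height was the greater one at 54 peaks (72.0%). For all 10250 shared DKO peaks the median ratio was 1.25 and the WT height was greater at 72.1%. That whole mixes unlike classes. The values were 1.10 and 61.5% for shared promoter peaks with more CpGs, and 1.60 and 84.7% for shared CpG-poor peaks further away. The CpG-poor promoter peaks lay between these 2 classes. Whether sequencing depth entered the heights is not stated, so the ratios compare 2 profiles and not binding per cell. All 11 shared peaks with a WT height over 20 held WGATAA. For 61 of the 75 shared peaks the WT peak was CpG-poor by the same limit in its own window. Both peaks at *Gm826* had the same WT peak, and so had both at *Ttc39a*, so these WT peaks were counted more than once.

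Set by place in each list, 37 of the 75 (49.3%) stood higher in the WT list and the others in the DKO list. The share higher in the WT list was 45.6% for all 10250 shared DKO peaks. It was 38.6% for shared promoter peaks with more CpGs and 55.1% for shared CpG-poor peaks further away. The peaks furthest ahead in the DKO list were *Slc17a4*, *Adcy6*, *5033406O09Rik*, *Txlnb* and *Airn*, from 68.6 to 91.0 percentage points nearer its top than the WT peak was to the top of its own list. The DKO heights of these 5 ran from 8.51 to 17.0 and the WT heights from 6.55 to 8.34. The peaks furthest ahead in the WT list were *Nr1d1*, *Gip*, *Hist1h2bn*, *Cysltr1* and *Rerg*, by 46.8 to 54.1 points. *Gip*, the gene of a gut hormone that raises insulin, had heights of 26.3 in WT Flk1(+) and 9.74 in DKO Flk1(+) cells, with DKO ES at 2.52 and WT ES at 1.69. *Nr1d1*, a repressor of the circadian clock, had 10.7 and 5.52 and no GATA word.

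**Figure D4:**
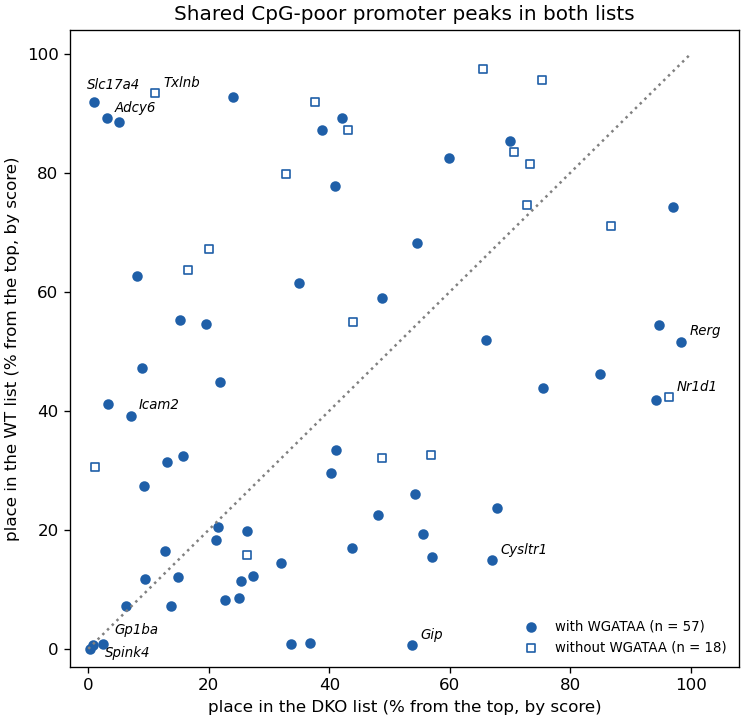
Place of the 75 shared CpG-poor promoter peaks in the DKO list (x axis) and of their WT peaks in the WT list (y axis), in percent from the top by the authors' score. Filled circles hold WGATAA (57) and open squares do not (18), and the dotted line marks equal places. *Spink4* and *Gp1ba* are near the top of both lists, *Slc17a4* and *Adcy6* near the top of the DKO list only, and *Gip* near the top of the WT list only.

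The peaks lay on both sides of the gene starts. By the signed distance to the gene, 83 were upstream and 85 downstream, 49.4% upstream (41.9% to 56.9%), and the median distance was 543 bp. Every peak not called upstream in this way was counted as downstream, so some may lie upstream of an internal start. At *Arhgap1*, *Dab2ip*, *Mkl2*, *Lsp1*, *Pfkfb2*, *Gcnt1* and *4933407C03Rik*, counted as downstream, a GENCODE start lay at the same distance on the other side. The counts were not corrected for this. Upstream were 42 of the 75 shared (56.0%, 44.8% to 66.7%) and 41 of the 93 DKO-only peaks (44.1%, 34.4% to 54.2%), against 54.2% and 41.0% of the shared and DKO-only promoter peaks with more CpGs. By the GENCODE annotation 5 positions were in coding exons, 20 in other exons, 78 in introns and 65 outside genes. Another DKO peak lay within 1 kb of 65 peaks, and for 48 of these it was rich in CpGs. The windows of 14 peaks overlapped that of another in 7 pairs, at *Gm826*, *Ttc39a*, *Hsd3b7*, *Plec1*, *Gngt2*, *Atg2a* and *Tenc1*, so these are not separate sequences.

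A CpG-poor peak near a gene start did not always mean a CpG-poor start. The start was placed at the authors' distance from the peak, with the strand taken from GENCODE, which was possible for 154 peaks. For 107 of them it lay within 10 bp of a GENCODE start, and the others were kept. Some of these were placed away from any GENCODE start, so their CpG counts may not be those of a start. Among CpG-poor starts this held for the shared peaks of *Arhgap1*, *Dab2ip*, *Mkl2*, *Lsp1* and *Kirrel*, by 282 to 33441 bp. It also held for the DKO-only peaks of *Gcnt1* and *4933407C03Rik*, by 334 and 1412 bp. The shares below were not recomputed without them. A window of the same length around the start held 8 or fewer CpGs for 68 and more for 86, with a range from 1 to 90. The peaks of CpG-poor starts lay at a median of 178.5 bp from the start and those of CpG-rich starts at 677 bp. The selection itself favours this contrast, since the window of a peak near a start overlaps the window at that start. The shared share was 44.1% at CpG-poor and 44.2% at CpG-rich starts. The GATA word was not divided so evenly. At CpG-poor starts it was found in 27 of 30 shared (90.0%, 74.4% to 96.5%) and 16 of 38 DKO-only windows (42.1%, 27.9% to 57.8%), and at CpG-rich starts in 24 of 38 (63.2%, 47.3% to 76.6%) and 22 of 48 (45.8%, 32.6% to 59.7%). The gap between the sets was thus wide at CpG-poor starts, while at CpG-rich starts the intervals overlapped.

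**Figure D5:**
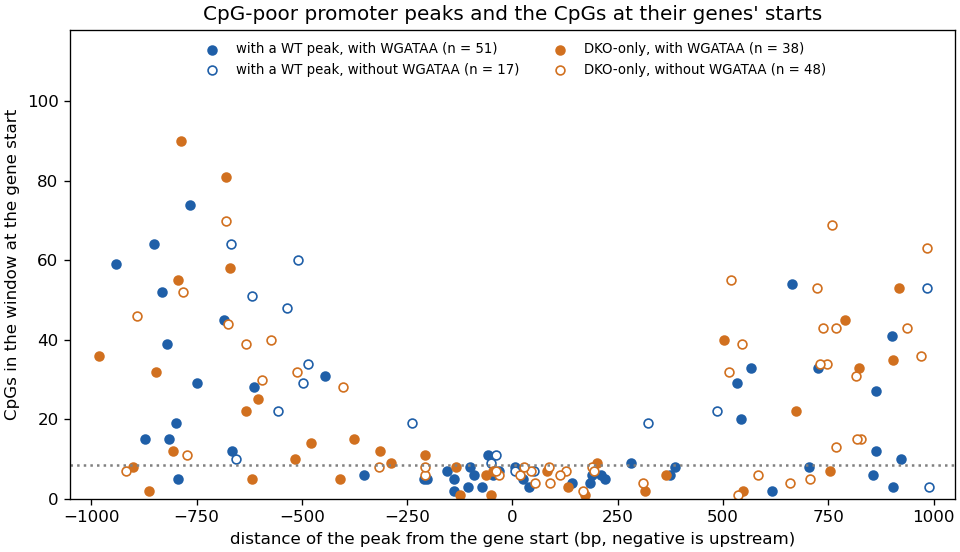
Distance of each of 154 CpG-poor promoter peaks from its gene start in bp (negative is upstream) and number of CpGs in the window at that start, placed by the authors' distance. Some starts were placed away from any GENCODE start, and some sides may be wrong. Blue points are shared and orange points DKO-only, filled points hold WGATAA, and the dotted line separates 8 CpGs from 9. Below the line 27 of 30 blue points are filled, and 16 of 38 orange points.

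The peaks were near 164 genes in the rows of the list, of which 148 are among the 22238 protein-coding genes of the annotation, or 0.666%. Lists of genes were chosen for the tissues of the study with earlier results of these data known, so they are not independent of the peaks. Among them, 7 of 46 blood and endothelial genes had such a peak, namely *Gp1ba*, *Gp9*, *Icam2*, *Itga2b*, *Pecam1*, *Tek* and *Vwf*. A promoter peak of any CpG content was present at 13 of the 46. The share of 15.2% is given beside the 0.666% of all genes as a count only. Of 63 endoderm, liver and gut genes only *Spink4* had a CpG-poor promoter peak, and none of 55 cardiac and muscle genes or 32 germline genes did. These lists are short and do not hold every gene of a tissue. *Alpk3*, *Tnnt3*, *Pdlim3*, *Gip* and *Slc17a4*, genes of muscle or gut with a CpG-poor promoter peak, were not on them. Of the 94 genes that the study chose for their response to Gata4 in DKO mesoderm, which are not an independent list, 1 had such a peak, *Tek*. The paper also names *Pdlim3* among genes that responded to Gata4 in DKO mesoderm. Its longer list of responsive genes at a later time was not compared.

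Among the 7 blood and endothelial genes *Gp1ba* and *Icam2* were shared and the other 5 DKO-only. The products of *Gp1ba* and *Gp9* are partners in the platelet receptor for the product of *Vwf*, which vessel cells make, *Pecam1* encodes an adhesion molecule at vessel cell junctions, and *Tek* the receptor for angiopoietins. The DKO-only peaks other than *Itga2b* had heights from 5.02 to 7.27. *Vwf* had 5.36 in DKO Flk1(+) against 0.293 in DKO ES cells 63 bp upstream, and *Gp9* had 5.02 against 0.601 at 53 bp downstream of the start. *Pecam1* had 7.27 against 1.81 at 39 bp upstream, and *Tek* 5.50 against 1.71 at 47 bp upstream, with rank 22143 of 22733. The windows of *Gp1ba*, *Icam2*, *Itga2b*, *Vwf* and *Tek* held WGATAA, the match at *Tek* lying 74.5 bp from the peak position, while *Pecam1* and *Gp9* had none. The nearest WT peak lay 2893 bp from the *Itga2b* peak, 7971 bp from *Pecam1*, 19875 bp from *Gp9*, 33382 bp from *Vwf* and 109834 bp from *Tek*.

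Gene families were also counted by symbol, to be read beside the 0.666% of all protein-coding genes. One of 1249 olfactory receptor genes (*Olfr576*), 1 of 103 Cyp genes (*Cyp4x1*), 3 of 356 Slc genes (*Slc17a4*, *Slc18a2* and *Slc23a1*), 3 of 531 microRNA genes (*Mir21*, *Mir297-1* and *Mir449c*), 1 of 13 Spink genes (*Spink4*), 1 of 98 Cd genes (*Cd151*) and 1 of 38 Ccl or Cxcl genes (*Ccl5*) had a peak. *Olfr576* had heights of 7.10 in DKO Flk1(+) and 20.3 in WT Flk1(+) cells, with 1.01 and 4.47 in ES cells. *Mir21*, the gene of a widely expressed microRNA, was DKO-only with 5.81 against 1.55. *Ccl5*, a chemokine gene, was DKO-only with 6.53 against 1.07 and no GATA word. No peak of this kind was found among the vomeronasal receptor (436), Krt (105), Serpin (67), Ly6 (16), Gpr (107), Il (85), Def (71), Klr (31), Clec (33), Ugt (21), Gst (23), Tmem (217) or Zfp (374) genes.

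The same rule applied to the WT list gave 210 CpG-poor promoter peaks, 3.93% of its 5341 promoter peaks. A DKO peak within 500 bp was listed for 73 of them, 34.8% (28.6% to 41.4%), and 137 had none. WGATAA occurred in 80.8% (70.3% to 88.2%) of the former and in 72.3% (64.2% to 79.1%) of the latter. The peaks present in 1 list only thus differed between the lists in this share, since the 93 DKO-only peaks held it in 40.9% (31.4% to 51.0%). The shares over all WT peaks and in WT flanks were not counted, so these WT values have no baseline here. The lists also differ in make-up, with 5341 promoter peaks among 20410 WT peaks and 10799 among 22733 DKO peaks.

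The limits of the selection fell within a continuous range of values. There were 23 promoter peaks with 8 CpGs, just inside, of which 8 were shared and 11 held WGATAA, with a median height of 6.31. There were 42 with 9 CpGs, just outside, of which 18 were shared and 13 held it, with a median height of 5.85. The best-scoring peaks with 8 CpGs were at *Slc18a2*, *Rpl35* and *Masp1*, with heights from 7.72 to 7.88, and with 9 CpGs at *Tprkb*, *Mfap3l* and *Rbm43*, with heights of 14.8, 7.31 and 6.85. The peaks just inside the distance limit lay at 985 bp (*Triobp* and *Arf1*) and 988 bp (*Lsp1*), and those just outside at 1020 bp (*Gm8234*), 1027 bp (*Ccdc50*) and 1029 bp (*Rab5c*).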

How the data were processed

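Gata4 ChIP-seq peaks of 1 WT Flk1(+) and 1 DKO Flk1(+) library were analysed, each called by the authors against the ES library of its genotype with DNAnexus tools on reads mapped to mm9. The submitters' processing notes name CASAVA 1.8.1 and cutadapt, and the aligner is not given in the sources used here. The columns carry no library name, so the genotype of a list was taken from how many peaks the study states for it. The lists hold no column of other samples. The deposited heights are a signal, namely the authors' smoothed profile in the Flk1(+) and ES libraries, with no scaling stated. The deposited enrichment is the ratio of both heights, with an ES height below 1 taken as 1. Peaks follow the deposited −log10 q-value, and their deposited rank served as the score. No height in the DKO list was below 5.00 and no enrichment below 3.00, so lower signal is not listed.

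From these lists each peak was counted once, with its nearest gene start. All 22733 DKO windows equalled the mm9 reference. CpGs and words were counted in the windows and in windows 2 kb to either side. Upstream was taken from the signed distance to the gene, since the deposited distance to the start has no sign. All other peaks were counted as downstream, which can be wrong where the start lies inside a gene. Exons and strands came from GENCODE vM1, and starts were placed at the deposited distance from the peak. Shares carry 95% Wilson intervals. The matching and counting steps were checked on simulated data. The members, words and gene lists were chosen with earlier results of these data known, and the run of TG or CA units after seeing the windows. Genes named are the 10 best-scoring shared and DKO-only peaks, the windows with most matches, the 5 shared peaks furthest apart in place in each direction, peaks at listed genes or families, and peaks at the limits of the selection. An item that this rule covers is left out here. *Blvrb*, *Tnnt3*, *Pdlim3*, the genes of overlapping windows and those with a start placed away from GENCODE starts were named after their values were seen. No test was run, since each condition has 1 library. Python 3.11.15, NumPy 2.4.6, pandas 2.3.3, SciPy 1.17.1 and Matplotlib 3.10.9 were used.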

Additional observations from a re-analysis of the deposited data

How the results depend on the processing

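No paired analysis was possible because each condition has 1 library. The number of peaks was 106 with 6 or fewer CpGs, 258 with 10 or fewer, 74 up to 500 bp from a start, and 84 in the upper 50% of the DKO list by score. In that upper part 60.7% had a WT peak nearby, 71.4% held WGATAA (57.6% of the DKO-only peaks) and the median height was 7.22. The share with a WT peak was 32.7% within 100 bp and 53.6% within 1000 bp, and the former limit gave WGATAA in 85.5% of shared peaks. WGATAR occurred in 66.7% of all and 57.0% of DKO-only windows. In the central 200 bp WGATAA occurred in 45.2% of all and 28% of DKO-only windows. The other 30 of 45 recomputed values stayed within the interval of the reported one, and the shared share of WGATAA was above the DKO-only share under every alternative. Depth limits the split, since signal below the calling threshold is not listed for either library.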
